A study of Homo sapiens with 16 samples.

Results

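The E2F family of transcription factors was followed through 16 RNA-seq libraries of SH-SY5Y cells, a human neuroblastoma line, with and without doxorubicin. The 10 genes described were taken by symbol from the 26410 genes of the deposited tables: E2F1 to E2F8, RB1 and TFDP2. All 10 were present once in each table and all passed the filter on low values. The activators E2F1, E2F2 and E2F3 were set against the 5 repressors E2F4 to E2F8. Between 37 reads (lowest library for TFDP2) and 3687 reads (highest library for RB1) lay behind a value.

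The 4 groups were 4 libraries each of TRPM2 KO cells and of scrambled control (Scr) cells, untreated or after 24 h of doxorubicin, a chemotherapy drug that damages DNA. TRPM2 encodes a calcium-permeable ion channel. Both genotypes had gone through CRISPR with a Cas9 guide vector (a TRPM2 guide or a scrambled guide), a donor vector with GFP and puromycin markers, and puromycin selection. Each genotype was represented by 2 single-cell clones, KO11 and KO28 or Scr13 and Scr16, sequenced in duplicate, so that a comparison of genotypes rests on 2 clones against 2. The doxorubicin dose reads 0.3 µM in the sample labels but 3 µM in the design description. The deposited column names read 0 h for the untreated libraries and 24 h for the treated ones. The study describes 24 h of culture with or without the drug. If the untreated cells were taken at 0 h, the drug and the time in culture cannot be told apart. Depth ran from 10481177 reads assigned to genes (Scr16 after doxorubicin, replicate 1) to 25086085 (median 16037366.5). Values are normalized CPM, the reads of a gene relative to the depth of its library, scaled by the authors.

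TRPM2 reads ran against the labels in the untreated cells. The untreated libraries labelled KO held 1.93, 2.23, 1.41 and 2.19 normalized CPM of TRPM2, and the untreated Scr libraries held 0.118, 0.115, 0 and 0. After doxorubicin the libraries labelled KO held 1.22, 1.83, 1.37 and 0.658 normalized CPM and the Scr libraries 0.0594, 0.0631, 1.33 and 0.390. Values at or below the worth of 3 reads (0.118 to 0.285 normalized CPM, depending on the library) are at the counting floor. The deletion is described as removing the start of the coding sequence and shifting the frame of the rest, so that reads over the whole gene do not check it. The study's methods state that the KO and scrambled cells were checked by RT-PCR and Western blotting. That check concerns the cell lines and not the labels of these libraries. The genotype is given as labelled, and whether each library carries the right label was not tested. The 11 markers of an adrenergic neuroblastoma cell summed to between 6292 and 7503 normalized CPM per library, led by STMN2, DBH and HAND2. Of these markers TH was at 0 in 6 libraries and reached at most 1.13 normalized CPM, and CHGA lay between 0.356 and 26.4.

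E2F proteins bind a short word in the promoters of genes for DNA replication and for the entry into S phase, mostly as a pair with a DP protein such as TFDP1 or TFDP2. E2F1, E2F2 and E2F3 activate these genes when they are free, and the pocket protein RB1 holds them inactive until cyclin-dependent kinases phosphorylate it. E2F4 and E2F5 act mainly as repressors with the pocket proteins RBL1 (p107) and RBL2 (p130). E2F6 represses without a pocket protein, and E2F7 and E2F8 repress without pocket or DP proteins. E2F genes are themselves E2F targets, and E2F7 is also a known target of p53.

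The promoters of the family are shown first because its activators carry the word that the family binds. The 60 bases before the RefSeq start (GRCh38.p14) are printed 5′ to 3′ on the strand of the gene, with E2F words in capitals. For E2F3 the first of its 2 starts is printed. The 4 E2F words were TTTCCCG and also TTTCGCG as well as TTTGCCG and lastly TTTGGCG. Capitals also mark a second word, TTGGCGC, which starts 1 base later than the fourth E2F word where they overlap and shares all but its last letter with it. All were searched on both strands. The activators and RBL1 are followed by E2F7 and E2F4, in which no capitals occur. The windows are chr20:33686386-33686445 for E2F1, chr1:23531234-23531293 for E2F2, chr6:20401819-20401878 for E2F3, chr20:37095998-37096057 for RBL1, chr12:77065570-77065629 for E2F7 and chr16:67192095-67192154 for E2F4. E2F3 and E2F4 lie on the + strand and the other 4 on the - strand.
E2F1: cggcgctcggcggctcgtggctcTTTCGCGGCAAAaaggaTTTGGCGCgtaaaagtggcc
E2F2: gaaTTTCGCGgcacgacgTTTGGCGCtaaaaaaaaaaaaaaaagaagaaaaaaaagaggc
E2F3: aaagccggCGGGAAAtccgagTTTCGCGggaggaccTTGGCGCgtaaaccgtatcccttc
RBL1: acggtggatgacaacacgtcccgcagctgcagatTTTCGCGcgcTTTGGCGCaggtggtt
E2F7: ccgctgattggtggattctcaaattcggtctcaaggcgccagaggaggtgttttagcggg
E2F4: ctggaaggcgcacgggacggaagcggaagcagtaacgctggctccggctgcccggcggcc

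In E2F1, E2F2, E2F3 and RBL1 the word TTTCGCG was followed on the same strand by TTGGCGC. The first letters of both words lay 18 bases apart in E2F1, 16 in E2F2, 15 in E2F3 and 11 in RBL1. The arrangement, with up to 25 bases between the first letters, was defined after these sequences had been read. It was present in 5 of 35116 RefSeq promoters (0.0142%), of which the fifth belongs to TTC23L. Any of the 4 words of the first kind was present in 8.67% of promoters, TTTCGCG in 1.32% and TTGGCGC in 3.04%. Over 300 bases, from 250 before to 50 after the start, E2F6 held TTTCCCG 183 and 78 bases before the start, E2F7 held TTGGCGC 133 bases before it on the opposite strand, and E2F4 held none of the words. TFDP2 held the fourth E2F word 19 bases after the first of its 3 starts, on the opposite strand, and TFDP1 held TTTCGCG 119 bases before its start, also on the opposite strand. At the second start of E2F3 (chromosome 6, 20403614) none of the words was found. The word CCAAT, present in 34.6% of promoters, occurred 3 times in E2F1, 4 times in E2F3, 4 times in E2F7 and 2 times in TFDP2. For RB1 the window searched lay at a start inside the gene (chromosome 13, 48476450) and held none of these words, and promoters of E2F5 and E2F8 were not analysed here.

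**Figure D1:**
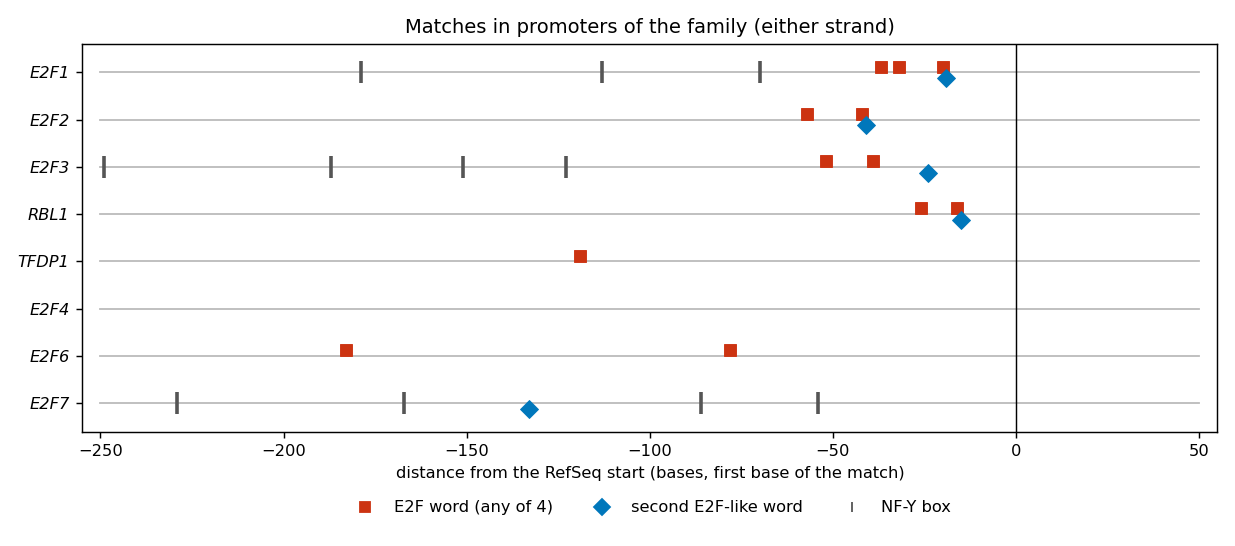
Matches to promoter words by distance from the RefSeq start (x axis, bases) in 8 genes of the family (y axis). Squares are any of the 4 E2F words, diamonds the second word and bars the NF-Y box CCAAT. In E2F1, E2F2, E2F3 and RBL1 squares and a diamond lie together within the 60 bases before the start.

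Per kilobase of annotated exon, E2F1 was the most abundant member in untreated Scr cells, at 51.6 ± 3.6 normalized CPM per kb (SD, n = 4). E2F4 (24.1 ± 2.8), RB1 (23.0 ± 2.1) and E2F3 (22.1 ± 0.87) followed, and the libraries of neighbours in this order overlapped. E2F2 (16.4 ± 1.7), E2F6 (8.72 ± 0.70), E2F8 (6.94 ± 0.75), E2F7 (4.13 ± 0.38), E2F5 (1.86 ± 0.15) and TFDP2 (0.298 ± 0.080) came next, each below the one before in every library. The order of the atypical repressors differed between treatments. E2F8 lay above E2F7 in all untreated libraries, whereas in the libraries labelled KO after doxorubicin E2F7 (6.68 ± 0.86 normalized CPM per kb) lay above E2F8 (4.77 ± 0.67) without overlap. In Scr cells after doxorubicin the 2 genes overlapped, at 5.46 ± 0.47 and 5.32 ± 1.0.

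**Figure D2:**
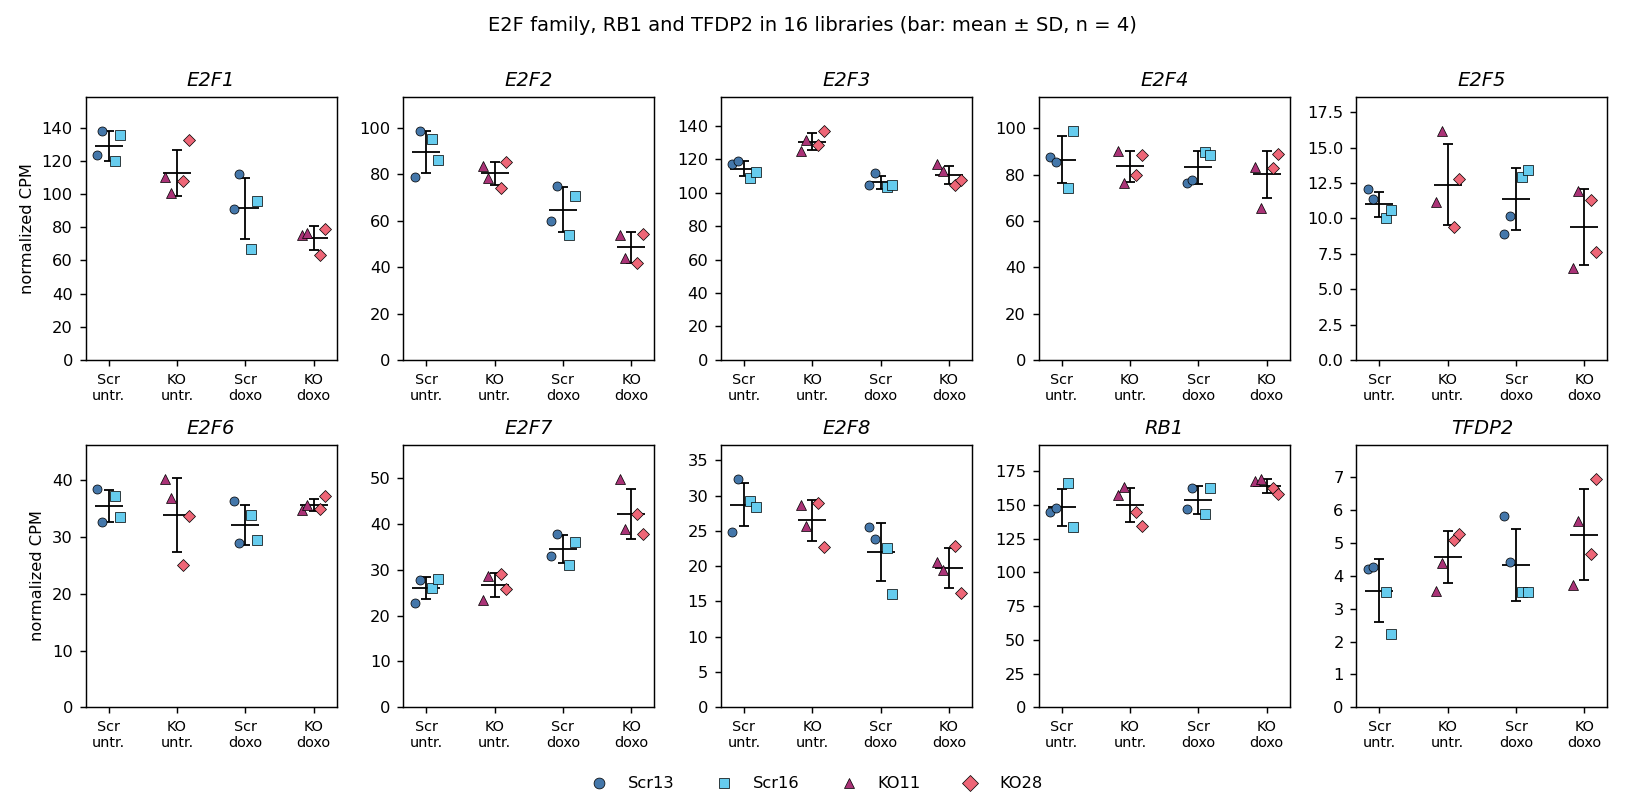
Normalized CPM (y axis, from 0) of each member in the 4 groups (x axis). Points are libraries, with a symbol for each clone, and bars are the mean ± SD of 4 libraries. E2F1 and E2F2 lie lower and E2F7 higher after doxorubicin in both genotypes.

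Doxorubicin lowered the activators E2F1 and E2F2 and raised the atypical repressor E2F7 in both genotypes, whereas the pocket-bound repressors, E2F6, RB1 and TFDP2 did not pass the test. Changes were tested with limma on log2(normalized CPM + 1) over the 16 libraries with the clone as a term, adjusted by the Benjamini-Hochberg method over 15325 genes at a threshold of 0.05, and fold changes are on that scale, which understates those of low genes. In Scr cells 3 of 10 members were called (1 higher, 2 lower), where 12.6% of all genes tested were called. In the libraries labelled KO 5 of 10 members were called (1 higher, 4 lower), where 17.8% of all genes tested were called. Treated and untreated libraries did not overlap for 3 of 10 members in Scr cells, beside 16.4% of all genes tested. The same held for 4 of 10 members in the libraries labelled KO, beside 19.1% of all genes tested. RNA was taken from bulk cultures, in which fewer cells of a cycle phase and less RNA per cell cannot be told apart.

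E2F1 (chromosome 20, 33675683 to 33686404, GRCh38, - strand), the activator best known for driving entry into S phase and, when in excess, cell death, was 123, 138, 119.7 and 136 normalized CPM in the untreated Scr libraries and 91.0, 112, 66.9 and 95.5 after doxorubicin. It was 110.2, 100.5, 108 and 133 in the untreated libraries labelled KO and 75.6, 76.5, 63.0 and 79.2 after doxorubicin. All treated libraries lay below all untreated libraries of their genotype. E2F1 fell by 30.1% in Scr cells (log2 fold change -0.52 ± 0.107 (SE), adjusted p = 0.0012 with limma) and fell by 34.4% in the libraries labelled KO (-0.61 ± 0.107, adjusted p = 0.000114). It was lower in each of the 4 clones, from -0.37 in Scr13 to -0.75 in KO28 on the log2 scale. Without clone Scr16 the fall in Scr cells was -0.37 with an adjusted p of 0.11.

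E2F2 (chromosome 1, 23506430 to 23531220, - strand), another activator of S-phase genes, was 78.7, 98.5, 95.4 and 86.0 normalized CPM in the untreated Scr libraries and 59.9, 74.8, 54.0 and 70.6 after doxorubicin. It was 83.5, 78.4, 74.3 and 85.5 in the untreated libraries labelled KO and 54.1, 44.0, 41.8 and 54.3 after doxorubicin. Treated and untreated libraries did not overlap in either genotype. E2F2 fell by 27.7% in Scr cells (-0.47 ± 0.106, adjusted p = 0.00293 with limma) and fell by 39.5% in the libraries labelled KO (-0.72 ± 0.106, adjusted p = 9.76e-06). The difference between the 2 falls was -0.26 ± 0.150 on the log2 scale and was not called (adjusted p = 0.696 with limma). Without clone Scr16 the fall in Scr cells was -0.39 with an adjusted p of 0.119.

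E2F3 (chromosome 6, 20401906 to 20493715, + strand), the third activator of the family, had smaller fitted changes than the other activators. Its untreated Scr libraries held 117, 119, 109 and 112 normalized CPM and the treated ones 104, 112, 104 and 105, which overlapped (-0.11 ± 0.0692, adjusted p = 0.355 with limma). Its untreated libraries labelled KO held 125, 132, 129 and 137 normalized CPM and the treated ones 117, 113, 105 and 108. The latter did not overlap, and E2F3 fell by 15.1% (-0.24 ± 0.0692, adjusted p = 0.0161 with limma). The call was lost without clone KO11 (-0.317, adjusted p = 0.0663) and without clone KO28 (-0.155, adjusted p = 0.352). It was also lost without replicate 2 of untreated KO28 (-0.202, adjusted p = 0.0588) or replicate 1 of treated KO28 (-0.211, adjusted p = 0.0521). Its processed pseudogene E2F3P2 held at most 10 reads in any library, against at least 1090 for E2F3.

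E2F7 (chromosome 12, 77021247 to 77065580, - strand), an atypical repressor that lowers E2F1 and other S-phase genes after DNA damage, was 22.8, 27.6, 25.9 and 27.9 normalized CPM in the untreated Scr libraries and 33.0, 37.8, 31.1 and 35.9 after doxorubicin. It was 23.4, 28.6, 29.04 and 25.7 in the untreated libraries labelled KO and 49.7, 38.9, 42.0 and 37.7 after doxorubicin. All treated libraries lay above all untreated ones of their genotype. E2F7 rose 1.31-fold in Scr cells (0.39 ± 0.119, adjusted p = 0.0272 with limma) and 1.55-fold in the libraries labelled KO (0.64 ± 0.119, adjusted p = 0.000245). The rise was seen in each of the 4 clones, from 0.30 in Scr16 to 0.74 in KO11. The call in Scr cells was lost without clone Scr13 (0.302, adjusted p = 0.381) and without clone Scr16 (0.477, adjusted p = 0.0935). It was also lost in 4 of 8 fits that left out 1 library (0.318 to 0.447 over the 8, highest adjusted p = 0.125). In the libraries labelled KO the call was lost without clone KO11 (0.527, adjusted p = 0.064).

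E2F8 (chromosome 11, 19224063 to 19241620, - strand), the partner of E2F7 among the atypical repressors, had lower means after doxorubicin. It was 24.8, 32.4, 29.3 and 28.4 normalized CPM in the untreated Scr libraries and 25.5, 23.9, 22.6 and 16.0 after doxorubicin (-0.38 ± 0.142, adjusted p = 0.0749 with limma). The change in Scr cells was called in 1 of 8 fits without 1 library, at -0.49 (adjusted p = 0.0338) without Scr13 untreated replicate 1, and it was -0.25 (adjusted p = 0.274) without Scr16 treated replicate 2. It was 28.6, 25.7, 28.9 and 22.8 in the untreated libraries labelled KO and 20.5, 19.5, 22.8 and 16.1 after doxorubicin. The groups overlapped in both genotypes, in the libraries labelled KO only at 22.8. E2F8 fell by 24.8% in the libraries labelled KO (-0.41 ± 0.142, adjusted p = 0.0429 with limma). The call held in 2 of 8 fits that left out 1 library (-0.508 to -0.318, adjusted p from 0.021 to 0.171). It held in neither fit without a clone (-0.399, adjusted p = 0.311 without KO11, and -0.421, adjusted p = 0.188 without KO28).

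The pocket-bound repressors, E2F6, the pocket protein and the DP partner were not called with doxorubicin in either genotype. E2F4, the main E2F of resting cells, lay between 65.4 and 98.7 normalized CPM over the 16 libraries (-0.05 ± 0.0948 in Scr cells and -0.07 ± 0.0948 in the libraries labelled KO). E2F5 was low, between 6.53 and 16.1 normalized CPM (0.03 ± 0.200 and -0.38 ± 0.200), and 16.3% of its exon length is shared with C8orf59 on the opposite strand, from which its reads cannot be told apart if strand was not used in counting. E2F6 lay between 25.01 and 40.2 normalized CPM (-0.14 ± 0.120 and 0.09 ± 0.120), RB1 between 134 and 170 (0.06 ± 0.0742 and 0.13 ± 0.0742), and TFDP2 between 2.22 and 6.94 (0.23 ± 0.222 and 0.15 ± 0.222). The adjusted p of these members lay between 0.205 (E2F5 in the libraries labelled KO) and 0.956 (E2F5 in Scr cells) with limma. Some means near 0 joined clones that went opposite ways. E2F5 changed by -0.27 in Scr13 and 0.33 in Scr16, and E2F6 by -0.13 in KO11 and 0.30 in KO28. E2F4 changed by -0.17 in Scr13 and 0.06 in Scr16, and by -0.17 in KO11 and 0.03 in KO28.

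**Figure D3:**
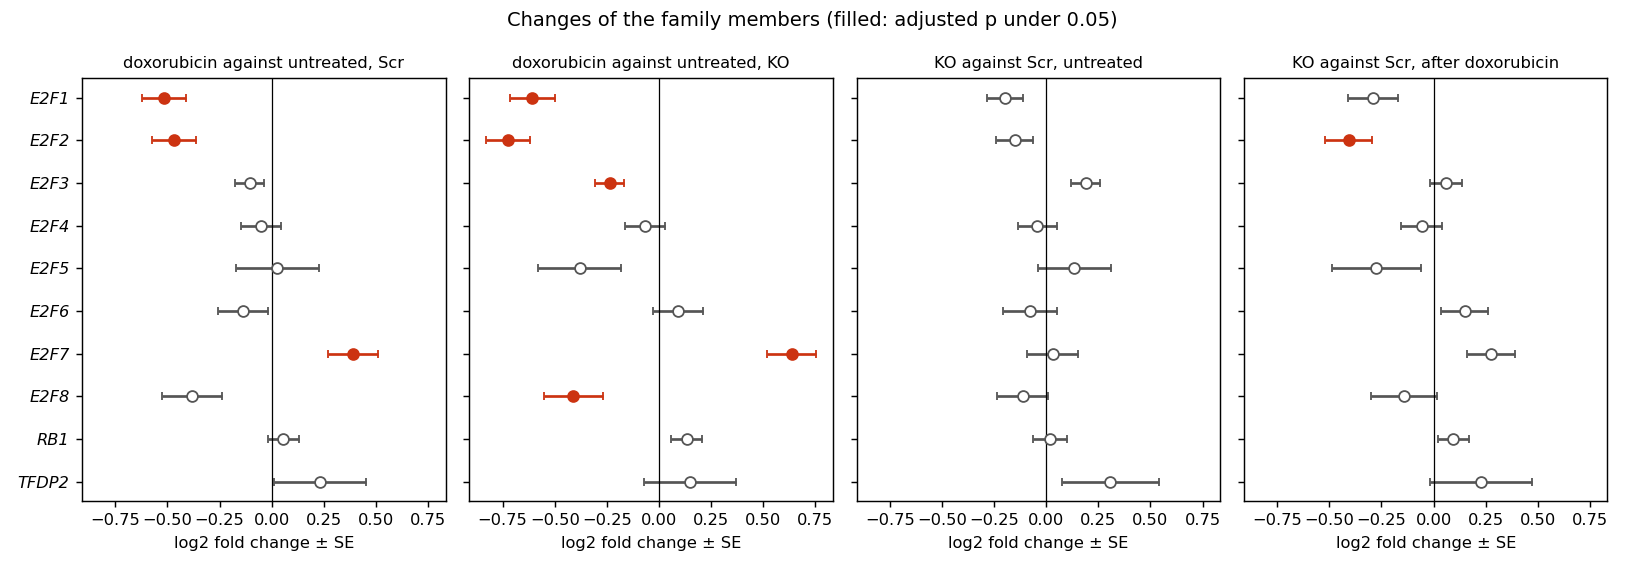
Log2 fold change ± SE (x axis) of the 10 members (y axis) in 4 comparisons. Filled points passed an adjusted p of 0.05. With doxorubicin E2F1 and E2F2 lie below 0 and E2F7 above 0 in both genotypes, and of the comparisons between genotypes a filled point is seen for E2F2 after doxorubicin.

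The level of the activators was set against that of the repressors as a description, as the mean log2 level of E2F1, E2F2 and E2F3 minus that of E2F4 to E2F8. The difference was 1.82 ± 0.0496 (SD, n = 4) in untreated Scr cells and 1.49 ± 0.22 after doxorubicin, and 1.78 ± 0.13 and 1.28 ± 0.19 in the libraries labelled KO. All treated libraries lay below the untreated ones of their genotype: from 1.19 to 1.71 against 1.77 to 1.88 in Scr cells, and from 1.01 to 1.45 against 1.63 to 1.93 in the libraries labelled KO. The genotypes overlapped in each treatment. The repressor mean lay between 4.85 and 5.05 in all 16 libraries, and the activator mean lay between 6.67 and 6.89 untreated and between 6.05 and 6.63 after doxorubicin. Within the repressor mean E2F7 and E2F8 had fitted changes of opposite sign (0.39 and -0.38 in Scr cells, 0.64 and -0.41 in the libraries labelled KO). A flat mean therefore does not show that each repressor kept its level. With E2F7 and E2F8 left out, the difference was 1.72 ± 0.12 and 1.41 ± 0.28 in Scr cells and 1.66 ± 0.18 and 1.26 ± 0.21 in the libraries labelled KO. Treated and untreated libraries then overlapped in both genotypes, with Scr13 replicate 2 after doxorubicin at 1.73 against untreated Scr13 replicate 1 at 1.56, and KO11 replicate 1 after doxorubicin at 1.49 against untreated KO11 replicate 2 at 1.47.

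**Figure D4:**
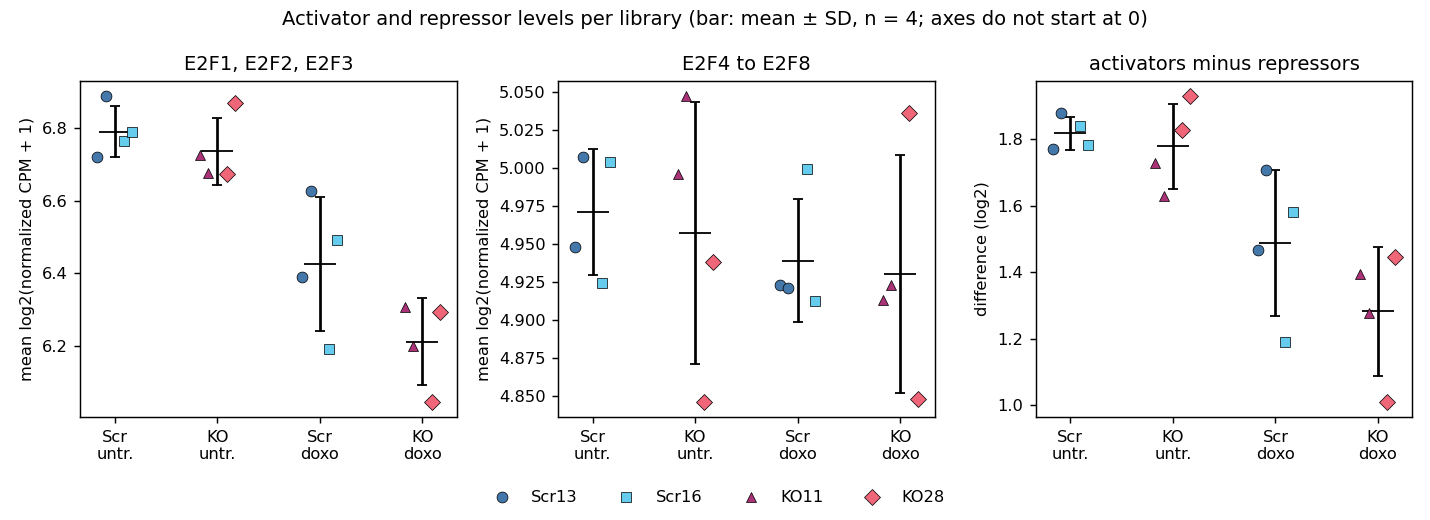
Mean log2(normalized CPM + 1) of the activators, of the repressors, and their difference (y axes, not from 0) in the 4 groups (x axis). Points are libraries and bars the mean ± SD of 4. The activator mean is lower after doxorubicin. The repressor mean lies between 4.85 and 5.05 throughout, with E2F7 and E2F8 changing in opposite directions within it.

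Untreated cells of the 2 genotypes were compared next, to ask whether the family differed before the drug. None of the 10 members was called with limma over the 8 untreated libraries (4.84% of 14364 genes tested were called, 2.3% higher and 2.54% lower). At an unadjusted p under 0.05 there were 2, E2F1 and E2F3, and edgeR's quasi-likelihood test and DESeq2 each called 0. E2F3 was the 1 member of 10 whose groups did not overlap (9.29% of all genes tested), with 125 to 137 normalized CPM in the libraries labelled KO and 109 to 119 in Scr. The difference was 0.19 ± 0.0704 on the log2 scale (adjusted p = 0.173 with limma). The two-sided exact permutation p of 0.0286 is the smallest that 4 libraries against 4 allow. That value follows from the absence of overlap, and the permutation treats duplicates of a clone as separate, so nothing is concluded from it. E2F1 was lower by -0.20 ± 0.0863 (adjusted p = 0.278) with overlap at the KO28 library of 133 normalized CPM, and without it the difference was -0.28 with an adjusted p of 0.0416. In the other 7 of 8 fits without 1 library it was not called, with differences down to -0.15 and adjusted p up to 0.522.

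After doxorubicin E2F2 was lower in the libraries labelled KO than in Scr, and it was the 1 of 10 members called (8.69% of 14572 genes tested were called). Its values, given above, overlapped in Scr16 replicate 1 (54.0 normalized CPM), the library with the fewest reads. The fitted difference of E2F2 was -24.6% (log2 fold change -0.41 ± 0.115, adjusted p = 0.0271 with limma, exact permutation p = 0.0857). The call was lost in 4 of 8 fits without 1 library (adjusted p 0.0918 without KO11 replicate 2, 0.106 without Scr13 replicate 2, 0.0962 without Scr16 replicate 2 and 0.108 without KO28 replicate 1). The difference lay between -0.491 and -0.336 in the 8 fits. The call was also lost without clone KO11 (-0.425, adjusted p = 0.146), clone KO28 (-0.391, 0.17) or clone Scr13 (-0.35, 0.133). E2F1 was -0.29 ± 0.119 (adjusted p = 0.16, exact permutation p = 0.114), and without Scr16 replicate 1, in which E2F1 was lowest of the treated Scr libraries, the difference was -0.43 with an adjusted p of 0.00502. In the other 7 of 8 fits without 1 library it was not called, down to -0.19 with an adjusted p of 0.421 without Scr13 replicate 2, and without clone Scr16 it was -0.46 with an adjusted p of 0.0116. E2F7 was 0.28 ± 0.115 (adjusted p = 0.163, exact permutation p = 0.0571), with overlap at 37.7 in KO28 and 37.8 in Scr13. None of the 10 members was free of overlap between genotypes (13.2% of all genes tested were).

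The change of the doxorubicin response with genotype was tested as an interaction, and 0 of 10 members were called with limma (4 of 15325 genes, 0.0261%, were called, 0.0131% in each direction). At an unadjusted p under 0.05 there were 0 members, and edgeR and DESeq2 each called 0. Beyond E2F2, the widest differences between the 2 responses were those of E2F5 (-0.41 ± 0.283), E2F7 (0.25 ± 0.168) and E2F6 (0.23 ± 0.169). With 1 library left out they ran from -0.544 to -0.218, from 0.155 to 0.318 and from 0.103 to 0.296, and none was called. A larger response of E2F2 or E2F7 in 1 genotype was thus not detected beyond the spread of these libraries.

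Fibroblast markers moved with the genotype labels. In untreated cells 4 of 6 were called higher in the libraries labelled KO (2.3% of all genes tested), with a summed level of 302, 224, 324 and 297 normalized CPM against 238, 79.3, 130.2 and 108 in Scr. After doxorubicin 4 of the 5 tested were called higher (4.52% of all genes tested), with sums of 325, 245, 344 and 283 against 90.3, 84.3, 158 and 98.4. COL3A1 was the most abundant, between 6.88 and 215 normalized CPM, and COL1A2 was at 0 in 2 libraries. Leukocyte and epithelial markers in the tables summed to at most 1.67 and 1.82 normalized CPM, led by CD14 and EPCAM. The part of these genes in the differences between genotypes was not tested.

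The other DP and pocket proteins were listed beside the members. TFDP1, the main DP partner, fell with doxorubicin in Scr cells (128 ± 7.7 to 109 ± 6.2 normalized CPM, SD, n = 4; -0.23 ± 0.0733, adjusted p = 0.035 with limma). In the libraries labelled KO it was 114 ± 4.7 and 101.1 ± 7.4 (-0.17 ± 0.0733, adjusted p = 0.107). TFDP1 was lower after doxorubicin in each of the 4 clones, from -0.12 in KO11 to -0.28 in Scr16 on the log2 scale. RBL1, which shares the word arrangement of the activators, was 37.5 ± 2.6 and 34.5 ± 2.7 normalized CPM in Scr cells (adjusted p = 0.564) and fell from 35.7 ± 5.5 to 27.6 ± 3.4 in the libraries labelled KO (-0.35 ± 0.112, adjusted p = 0.0253). In Scr cells the change of RBL1 was -0.27 in clone Scr13 and 0.03 in clone Scr16. RBL2, the pocket protein of resting cells, was not called, with 84.6 ± 4.5 and 92.8 ± 5.5 in Scr cells and 78.7 ± 4.5 and 89.8 ± 3.9 in the libraries labelled KO (adjusted p = 0.287 and 0.0877). None of these 3 genes was called in the interaction, so a response particular to 1 genotype was not shown.

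G1/S genes that E2Fs are known to activate fell together with doxorubicin. In Scr cells 24 of 34 fell and 1 rose (5.53% of all genes tested fell and 7.09% rose), with a median log2 fold change of -0.38 against -0.01 over all genes. In the libraries labelled KO 30 of 34 fell and none rose (7.6% and 10.2% of all genes tested), with a median of -0.54 against 0.02 over all genes. MCM5 changed most in Scr cells and MCM6 in the libraries labelled KO, both subunits of the replicative helicase, and UHRF1, which helps copy DNA methylation, came second in each. The changes were: MCM5 (-0.77 ± 0.102 in Scr cells and -0.93 ± 0.102 in the libraries labelled KO), UHRF1 (-0.71 ± 0.109 and -0.96 ± 0.109), MCM6 (-0.71 ± 0.0742 and -1.02 ± 0.0742), CDC45 (-0.67 ± 0.109 and -0.80 ± 0.109) and GINS2 (-0.56 ± 0.108 and -0.82 ± 0.108). CDT1, a licensing factor, was the gene that rose in Scr cells (0.34 on the log2 scale, adjusted p = 0.0203 with limma), and 0 genes of the list were called higher there with no filter, with no clone term, without clone Scr13, or without Scr13 untreated replicate 1, Scr13 treated replicate 2 or Scr16 treated replicate 2. Without clone Scr13 the count that fell in Scr cells was 15 and without clone Scr16 it was 12, and 18 without replicate 1 of treated Scr16. Of the 34 genes, 30 had a RefSeq promoter, and 19 of these (63.3%) held 1 of the 4 E2F words on some start, against 10.4% of all genes.

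Between genotypes 1 gene of the list was called before the drug and 12 were called after it. In untreated cells MCM2, which is part of the same helicase, was the 1 gene of 34 called and was lower in the libraries labelled KO (-0.75 ± 0.0711, adjusted p = 7.18e-07 with limma; 2.54% of all genes tested were lower), and the median was -0.07 against -0.01 over all genes. After doxorubicin 12 of 34 were lower and 0 higher (4.17% and 4.52% of all genes tested), with a median of -0.23 against 0.01. MCM2 (-0.93 ± 0.0841), the chromatin assembly factor CHAF1A (-0.51 ± 0.0847), MCM6 (-0.51 ± 0.082) and the polymerase subunit POLD1 (-0.47 ± 0.0852) differed most. The count moved with the filter, single libraries and clones: it was 6 with no filter, 4 without clone KO11, 5 without clone KO28, 8 without clone Scr13, 7 without KO11 replicate 1, 6 without Scr13 replicate 2, 6 without KO28 replicate 1, 8 without Scr16 replicate 2 or KO28 replicate 2, and 16 without Scr16 replicate 1. No gene of the list was called in the interaction (0 of 34, with edgeR 0 and with DESeq2 1), so that a larger fall in 1 genotype was not shown by that test.

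**Figure D5:**
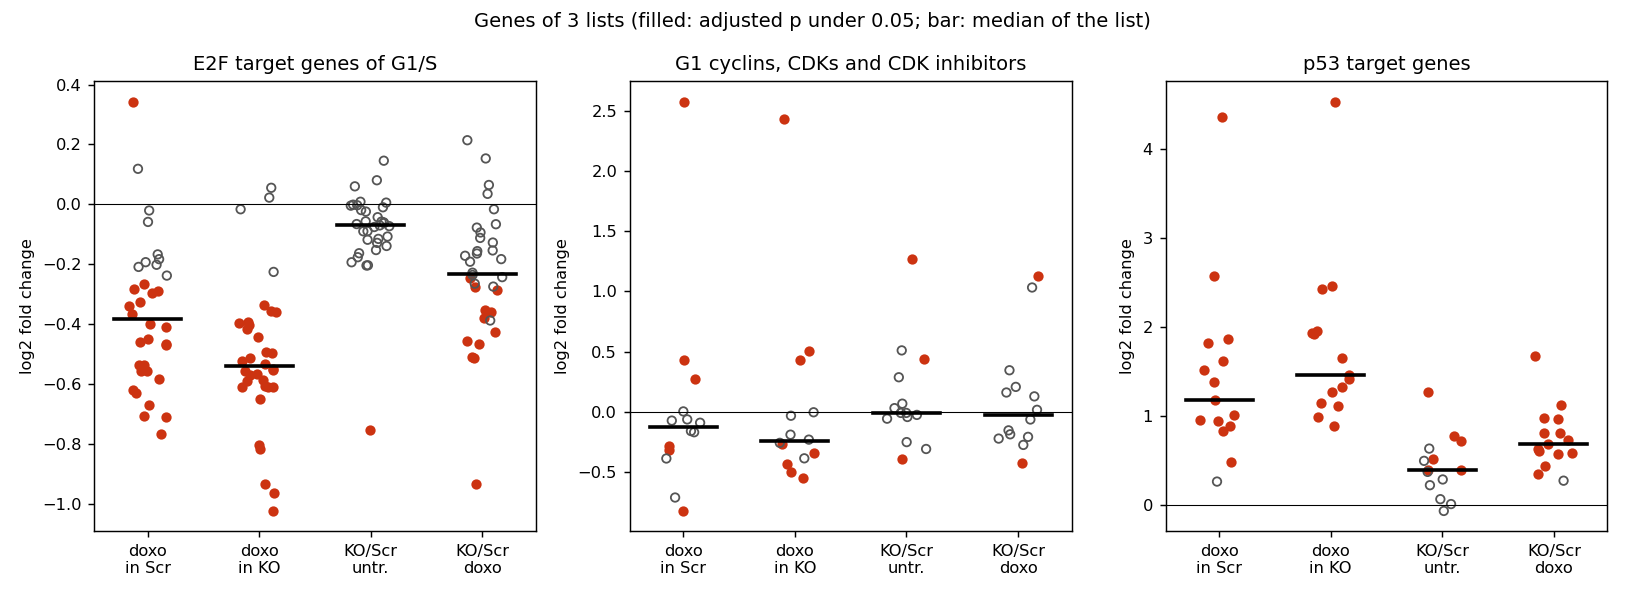
Log2 fold change (y axis, scales differ) of each tested gene of 3 lists in 4 comparisons (x axis). Filled points passed an adjusted p of 0.05 and bars are list medians. Medians of the E2F target genes are -0.38 and -0.54 with doxorubicin, and those of the p53 target genes 1.18 and 1.46.

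Among the regulators upstream of RB1, the CDK inhibitor CDKN1A (p21) moved most. CDKN1A rose 5.97-fold with doxorubicin in Scr cells, from 57.0 ± 15 to 337 ± 25 normalized CPM (SD, n = 4), and 5.39-fold in the libraries labelled KO, from 136 ± 16 to 736 ± 45. In Scr cells 3 of the 14 tested genes of the G1 list rose and 3 fell (7.09% and 5.53% of all genes tested), and in the libraries labelled KO 3 rose and 5 fell (10.2% and 7.6%). These counts moved with single clones and libraries: in Scr cells to 1 and 1 without clone Scr13, 2 and 0 without clone Scr16, 1 and 1 without Scr13 untreated replicate 2, 2 and 1 without Scr13 treated replicate 1 and 1 and 2 without Scr16 treated replicate 1, and in the libraries labelled KO to 2 and 3 without clone KO11 and 2 and 2 without clone KO28. CCNE2, an E-type cyclin and E2F target, fell in Scr cells from 16.6 ± 2.5 to 8.98 ± 1.6 (-0.82 ± 0.178, adjusted p = 0.00193 with limma) and was 13.2 ± 2.2 and 9.88 ± 1.5 in the libraries labelled KO (adjusted p = 0.141). CCNE1 (adjusted p = 0.121 and 0.304) and CCND1 (adjusted p = 0.728 and 0.991), the latter with group means between 2258 and 2345 normalized CPM, were not called. The phosphatase CDC25A fell in both genotypes (-0.32 ± 0.0911 and -0.50 ± 0.0911), as did the ubiquitin ligase subunit SKP2 (-0.29 ± 0.0867 and -0.55 ± 0.0867). The inhibitors CDKN2D (0.44 ± 0.147 and 0.43 ± 0.147) and CDKN1B (p27, 0.27 ± 0.0769 and 0.51 ± 0.0769) rose in both, CDKN2D at an adjusted p of 0.049 and 0.0413 with limma, and 2 genes in place of 3 were called higher in each genotype with no clone term, with a replicate block, with no filter and with scaling by library size alone.

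Between genotypes 3 of the tested genes of the G1 list were called in untreated cells (4.84% of all genes tested): CDKN1A higher (1.27 ± 0.135), CDK6 higher (0.44 ± 0.0936) and CDKN1B lower (-0.39 ± 0.0815) in the libraries labelled KO. In untreated cells 0 were called lower without clone Scr13, 1 was called higher without clone KO11, without clone Scr16 or with no filter, and 2 were called lower without Scr16 replicate 1. After doxorubicin 2 were called (8.69% of all genes tested), CDKN1A higher (1.13 ± 0.0755) and CDKN2C lower (-0.42 ± 0.098). Without Scr16 replicate 1 the count was 4 (3 higher, 1 lower), and 0 genes of the list were called lower without clone KO11 or without clone Scr16. The p53 target genes, of which E2F7 is not a listed member, rose with doxorubicin in 14 of 15 cases in Scr cells (7.09% of all genes tested) and 15 of 15 in the libraries labelled KO (10.2%), led by GDF15 (4.36 ± 0.195 and 4.53 ± 0.195), CDKN1A, BTG2 (1.86 ± 0.110 and 1.95 ± 0.110) and FAS (1.81 ± 0.240 and 2.46 ± 0.240). Their medians were 1.18 and 1.46, beside -0.01 and 0.02 over all genes. In the libraries labelled KO they were higher than in Scr for 6 of 14 tested genes in untreated cells (2.3% of all genes tested) and 14 of 15 after doxorubicin (4.52%), with medians of 0.39 and 0.69, and without clone Scr16 the count in untreated cells was 3. CDKN1A, PHLDA3 (0.77 ± 0.143), BTG2 (0.71 ± 0.142) and ZMAT3 (0.52 ± 0.0959) differed most in untreated cells. TP53I3 (1.67 ± 0.157), CDKN1A, RRM2B (0.97 ± 0.117) and FAS (0.96 ± 0.220) differed most after doxorubicin.

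Few of the genes through which E2F1 is known to promote cell death were called. With doxorubicin 1 of 9, BBC3 (PUMA, also a p53 target), rose in each genotype (1.86 ± 0.119 in Scr cells and 1.37 ± 0.119 in the libraries labelled KO) and none fell, a count near the share of all genes that rose (7.09% and 10.2%). Medians of the 9 were -0.02 and 0.12. Between genotypes BBC3 was higher in untreated libraries labelled KO (0.77 ± 0.155) and PMAIP1 (NOXA) was higher after doxorubicin (0.76 ± 0.158). Of the 9 measured partners of E2F6 in its repressor complex, CBX3 (-0.40 ± 0.0737 and -0.26 ± 0.0737) and WDR5 (-0.32 ± 0.0882 and -0.41 ± 0.0882) fell with doxorubicin in both genotypes (5.53% and 7.6% of all genes tested fell), and none was called between genotypes in either treatment.

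The genes whose levels ran most like those of 4 members over the 16 libraries were found by Pearson's r over 15325 genes, as a description of libraries that share treatment and clone. For E2F1 they were MCM5 (0.954), MCM7 (0.950) and the amino acid transporter SLC1A4 (0.943). For E2F2 they were the condensin subunit NCAPD3 (0.953), MCM10 (0.950) and the DNA methyltransferase DNMT1 (0.950). E2F7 ran with TMEM131 (0.948), VANGL2 (0.946) and TMEM63B (0.945). E2F8 had lower values, with BRCA2 (0.868), GRM8 (0.865) and AHI1 (0.861). With the mean of each treatment removed, r was 0.924 for E2F1 with MCM5, 0.859 for E2F2 with NCAPD3, 0.804 for E2F7 with TMEM131 and 0.703 for E2F8 with BRCA2.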

How the data were processed

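Poly(A) RNA was sequenced from directional libraries. The submitters' processing notes name HISAT2 2.1.0, HTSeq, edgeR and GRCh38, and the use of strand is not given in the sources used here. The deposited signal is normalized CPM, reads scaled by the authors with 1 factor per library (0.974 to 1.03), and 100% of values were whole multiples of 1 read (largest deviation 5.35e-05). The factors lay within 0.0149 (log2) of TMM factors computed over the 16 libraries, so both tables were used together. The authors' deposited p-values, q-values, log2 fold changes and ranks of KO against Scr were not used. Genes reaching 1 normalized CPM in 4 or more libraries were tested with limma 3.58.1 (R 4.3.3, abundance trend), within a treatment without a clone term and for doxorubicin with clone. edgeR 4.0.16 and DESeq2 1.42.0 on recovered reads were alternatives. Floors (3 reads) cover counting error only, and SEs and SDs cover the spread between libraries. The study's methods call the duplicates of a clone biological replicates. They share the clone, and p-values measure the spread between these libraries. Duplicate libraries differed beyond sampling noise (chi-square per gene 7.79 to 16.9) and were counted separately. Symbols matched 95.0% of identifiers.

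Members and gene lists were chosen with earlier results of these data known. Named genes are the 10 members, the 4 largest called changes per list and comparison, 7 fixed cell cycle genes, TRPM2, and the 3 genes most like each of 4 members. CDT1, TTC23L and the counts of the lists without single clones were added after their values were seen. TFDP3, CCND2, RING1, PTPRC, CD3E, KRT5 and KRT14 were not analysed here, and 1 marker list is not reported here.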

Additional observations from a re-analysis of the deposited data

Results flagged for a closer look

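E2F3 was set apart in the treated Scr cells by its highest library, Scr13 replicate 2 (111.9 normalized CPM), whose gap to the next took up 0.867 of the range of the group and passed Dixon's critical value for 4 libraries. Of 72 groups looked at, this was 1, and chance gives about 1 in 20, or 3.6 here. TP53I3, a p53 target, differed in its response to doxorubicin between genotypes. The libraries labelled KO averaged 16.8 ± 3.0 normalized CPM untreated and 66.3 ± 9.2 treated (SD, n = 4), and those of Scr 16.6 ± 1.7 and 20.6 ± 5.2, an interaction of 1.66 ± 0.227 on the log2 scale (adjusted p = 0.000716 with limma). With no filter, and without clone KO11, 0 genes of the p53 list were called in the interaction, so that this call was lost.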

How the results depend on the processing

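Of 1110 refitted values of the members, 1024 kept direction and call, 31 lost the call, 4 gained it and 51 turned sign, the last all for values that were not called. E2F1 and E2F2 kept their fall with doxorubicin under all alternatives, apart from the call in Scr cells without clone Scr16 (given above). Without a filter the calls of E2F2 between genotypes after doxorubicin (adjusted p = 0.124), E2F7 in Scr cells (0.0537) and E2F8 in the libraries labelled KO (0.0967) were lost, where more genes were tested. Sign turned between untreated genotypes without KO11 for E2F5 (-0.0025) and RB1 (-0.0822), without Scr13 for E2F7 (-0.0179), and without KO28 for E2F6 (0.118) and E2F7 (-0.00773). After doxorubicin it turned for E2F4 without KO11 (0.0515) or Scr16 (0.0473) and for E2F8 without Scr13 (0.0382). With doxorubicin it turned for E2F4 without KO11 (0.0315) or Scr13 (0.0613), E2F6 without KO28 (-0.125) and E2F5 without Scr16 (-0.271). In the interaction it turned for E2F4 without KO11 (0.0835) or Scr16 (0.0985), E2F1 without Scr13 (0.0590) or KO28 (0.0530) and E2F8 without Scr13 (0.162). With single libraries left out, the ranges that crossed 0 were, between untreated genotypes, E2F4 -0.114 to 0.0228, E2F6 -0.166 to 0.0559, E2F7 -0.0304 to 0.0901 and RB1 -0.0307 to 0.0737, after doxorubicin E2F4 -0.111 to 0.0360, with doxorubicin in the libraries labelled KO E2F4 -0.116 to 0.0214 and E2F6 -0.0370 to 0.157, in Scr cells E2F4 -0.157 to 0.00721, E2F5 -0.0478 to 0.122 and RB1 -0.00285 to 0.122, and in the interaction E2F1 -0.223 to 0.00252, E2F4 -0.0740 to 0.0897, E2F8 -0.160 to 0.0840 and TFDP2 -0.189 to 0.0229.

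Counts of all genes called moved by over 1.5 times in the comparison of untreated genotypes (695 genes) without a filter (368), without Scr13 (330) and without Scr16 (327). After doxorubicin (1266) they moved without KO11 (510) or KO28 (575), and single libraries left out gave 814 (without KO11 replicate 1) to 1314. With doxorubicin they moved in the libraries labelled KO (2727) without KO11 (934) or KO28 (1413), and in Scr cells (1935) without Scr13 (569) or Scr16 (908). The interaction (4) gave 2 without a filter, 20 with a pseudocount of 4, 10 with edgeR, 53 with DESeq2, 1 to 19 without single libraries, 0 without KO11, 10 without Scr13 and 1 without Scr16 or KO28. The cause was not tested. With the mean of each clone as 1 value (2 clones against 2), 561 and 983 genes were called between untreated and between treated genotypes, among them E2F2 after doxorubicin (-0.408, adjusted p = 0.0227), 10 of 34 E2F targets and 13 of 15 p53 targets after doxorubicin. The deviations of same-numbered libraries of a clone in both treatments correlated at 0.117 in KO28, 0.220 in Scr13 and 0.110 in Scr16 but at -0.174 in KO11, and those of different clones within a treatment had a median of 0.077 (12 correlations). Not every pair was positive, and the numbers were not taken to pair the samples. A replicate block gave 697 and 1365 genes between genotypes, 2087 and 2850 with doxorubicin in Scr cells and in the libraries labelled KO, and 22 in the interaction, and it changed no call of a member. E2F5 and TFDP2 had the fewest reads and, with doxorubicin, the widest errors.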
